A study of Mus musculus with 15 samples.

Results

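The insulin receptor substrates, the FoxO factors and their closest partners in the insulin pathway were read from a table of kidney transcripts in wild-type mice. The members were chosen by name, with earlier results of these data known: Insr, Igf1r, Irs1, Irs2, Pik3r1, Akt2, Foxo1, Foxo3 and Igfbp1. All 9 were among the 23284 genes of the table, and all 9 passed the filter on low values. The kidneys came from 3 groups of 5 samples, labelled vehicle, L-ala and D-ala, for the L and D forms of alanine, each at 2 h and each of wild-type genotype. The forms are mirror images of 1 amino acid. Doses, routes, the make-up of the vehicle and the age, sex and strain of the mice are absent from the labels, so a difference between the amino acid groups cannot be told apart from a difference in dose or route. The labels do not state whether each sample was a different animal, so the p-values measure only the spread between these samples, which may be technical.

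Insulin and insulin-like growth factors bind receptor tyrosine kinases at the cell surface, and the activated receptors phosphorylate insulin receptor substrates. The substrates recruit phosphatidylinositol 3-kinase (PI3K), whose lipid product brings the kinase AKT to the membrane, and AKT phosphorylates FoxO transcription factors and moves them out of the nucleus. In the fasted state FoxO factors are active and raise genes of glucose production and of insulin sensing, Irs2 and Igfbp1 among them. The kidney's proximal tubule is, beside the liver, a site of glucose production that insulin restrains.

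Every library carried the RNA of kidney tubules. Of 8 proximal tubule markers all 8 were tested, and their summed level ran from 2855 to 3250 FPKM under vehicle, 3286 to 3429 under L-ala and 3187 to 3557 under D-ala. FPKM are fragment numbers scaled to transcript length and to the size of the library, so levels can be compared between genes. The depth recovered from the table was 7.57 to 10.9 megareads per library. Of 11781 genes tested, 769 were higher and 580 lower under D-ala than under vehicle (740 and 836 after quantile normalization). For L-ala against vehicle 763 were higher and 534 lower (234 and 341 after quantile normalization), and between D-ala and L-ala 826 were higher and 785 lower. A change was called at an adjusted p under 0.05 in limma, a linear model fitted over all genes.

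The promoters below are shown because they hold the core of the insulin response element, a short sequence through which FoxO factors are known to act on Igfbp1. RefSeq promoters on GRCm38.p6 were at hand for 8 of the 9 members, and the 250 bases before the start of transcription were searched on both strands. The motifs were GTAAACA (a FoxO site), CAAAACA (the insulin response element core), TGACGTCA (the cAMP response element, CRE) and TGACG (the CRE core, which every full CRE also holds). Of all 32851 promoters of that table, 3.17% held the first, 5.56% the second, 1.55% the third and 17.8% the fourth. Capitals mark matches. Bases that lie inside the gene's annotated GENCODE span were left out of the printed sequences but not out of the search. Irs1 lies at chr1:82291440-82291689, Irs2 at chr8:11008930-11009179, both on the minus strand, and Igfbp1 at chr11:7197537-7197781 on the plus strand.
Irs1: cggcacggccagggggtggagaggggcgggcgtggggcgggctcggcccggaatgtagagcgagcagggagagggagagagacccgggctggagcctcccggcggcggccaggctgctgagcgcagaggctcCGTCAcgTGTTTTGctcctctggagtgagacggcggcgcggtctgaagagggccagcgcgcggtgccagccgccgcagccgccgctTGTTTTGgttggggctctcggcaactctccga
Irs2: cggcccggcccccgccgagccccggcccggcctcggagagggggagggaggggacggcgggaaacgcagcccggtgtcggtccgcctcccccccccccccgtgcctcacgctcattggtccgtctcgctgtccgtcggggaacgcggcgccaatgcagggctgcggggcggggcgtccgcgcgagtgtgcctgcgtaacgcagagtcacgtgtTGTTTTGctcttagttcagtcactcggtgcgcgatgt
Igfbp1: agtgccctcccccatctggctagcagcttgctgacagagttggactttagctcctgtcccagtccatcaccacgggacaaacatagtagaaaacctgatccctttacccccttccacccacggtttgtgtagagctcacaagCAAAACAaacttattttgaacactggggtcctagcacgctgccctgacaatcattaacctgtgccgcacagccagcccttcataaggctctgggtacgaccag

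Irs1 had the insulin response element core 2 times, 111 to 105 and 32 to 26 bases before the start, and a CRE core at 118 to 114. Irs2 had it once, 37 to 31 bases before the start, and Igfbp1 once, at 108 to 102. Foxo3 had a CRE core 64 to 60 bases before its RefSeq start, which reaches into the annotated gene span. Other CRE cores lay in 1 of the promoters of Pik3r1 and in 2 of those of Akt2. The Pik3r1 match and 1 of the Akt2 matches lay in windows inside the annotated gene span. None of the members' windows held GTAAACA or the full CRE, which says only that these letters are not in these windows. A match is a description of sequence and was set against no binding data.

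Foxo3, a FoxO transcription factor, rose under D-ala to a mean of 2.28 times the vehicle level. Foxo3 and Irs2 had higher levels in every D-ala library than in any L-ala library, as had Pik3r1, the regulatory subunit of PI3K. Irs2 is a substrate through which insulin acts in liver, and not the only one. For D-ala against L-ala the groups did not overlap, in either direction, in 9.11% of tested genes. Of the 9 members, 3 rose and 0 fell for D-ala against vehicle, where 6.53% of all tested genes rose and 4.92% fell. Of these calls that of Foxo3 held in all 24 alternative settings, that of Irs2 in 10 and that of Pik3r1 in 6. Between D-ala and L-ala 3 members were higher and 0 lower, against 7.01% and 6.66% of tested genes. For L-ala against vehicle 0 rose and 1, Irs1, fell, against 6.48% and 4.53%. At an unadjusted p under 0.05 the limma counts were 3 higher and 0 lower, 3 higher and 1 lower, and 0 higher and 2 lower in the same order. The median log2 fold change of the members was 0.05 and -0.05 for D-ala and L-ala against vehicle and 0.09 between the amino acids, and that of all tested genes was 0.00, 0.01 and -0.01. The 3 comparisons share groups, so their values for 1 gene are not independent of each other. Because the members were chosen with earlier results of these data known, their counts beside the shares are a description, not a test.

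**Figure D1:**
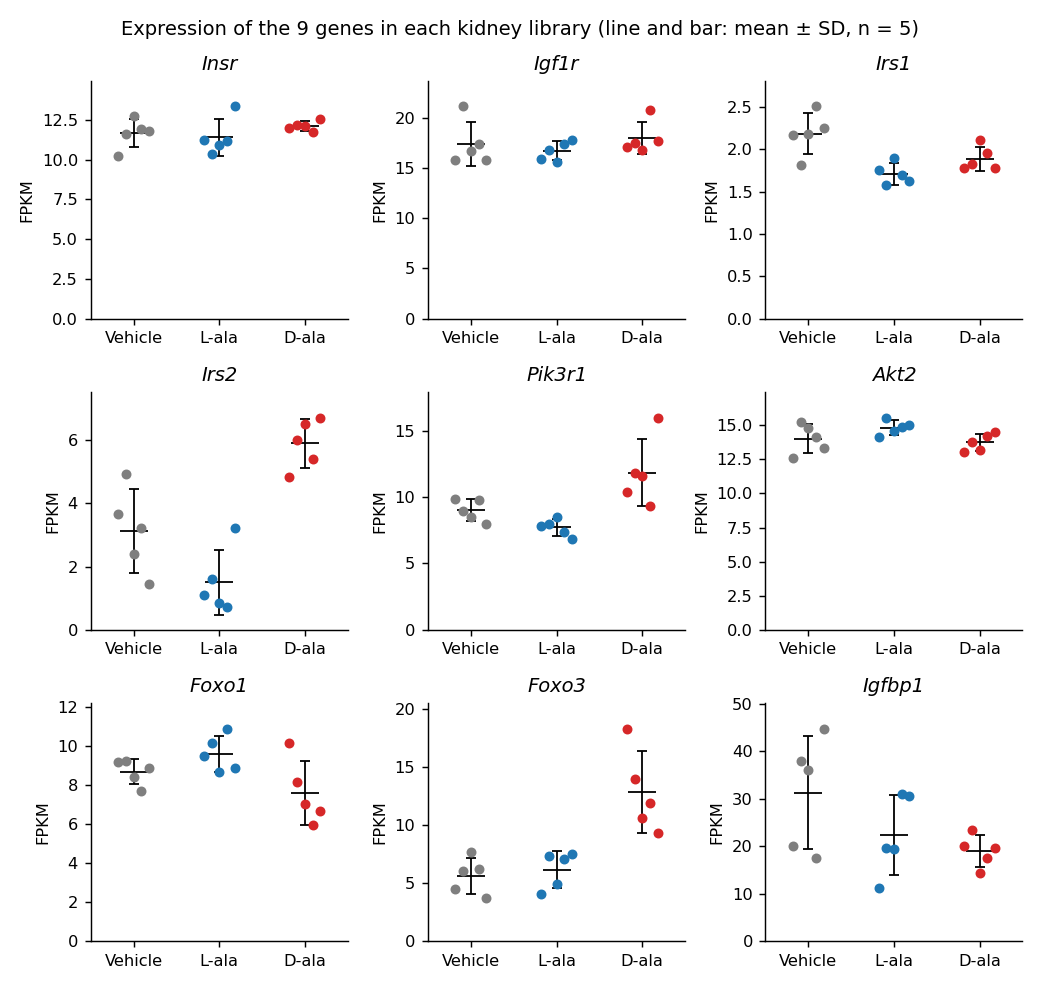
FPKM of the 9 members (vertical axes, linear from 0) in each of the 15 kidney libraries, with the mean ± SD of each group of 5. Foxo3 under D-ala lies between 9.31 and 18.3 FPKM, above every vehicle and L-ala library, and Irs2 under D-ala lies above every L-ala library.

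Averaged over the 15 libraries, Igfbp1 had the highest level per length at 24.2 FPKM, followed by Igf1r at 17.4, Akt2 at 14.2, Insr at 11.7, Pik3r1 at 9.53, Foxo1 at 8.62, Foxo3 at 8.21, Irs2 at 3.51 and Irs1 at 1.93. Igf1r was above Akt2, Akt2 above Insr and Foxo3 above Irs2 in 15 of 15 libraries. Other neighbours in this order changed places: Igfbp1 was above Igf1r in 12 libraries, Insr above Pik3r1 in 14, Foxo1 above Foxo3 in 10 and Irs2 above Irs1 in 11. Pik3r1 was above Foxo1 in 3 vehicle, 0 L-ala and 5 D-ala libraries. Relative to their means the levels of Akt2 and Insr varied least over all libraries, with coefficients of variation of 6.10% and 7.24%, and those of Irs2 and Foxo3 most, with 60.4% and 49.4%.

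The receptors differed by no more than the spread between libraries. Insr, the insulin receptor (GRCm38 chromosome 8, 3122061 to 3279617, minus strand), ran from 10.2 to 12.7 FPKM under vehicle, 10.3 to 13.3 under L-ala and 11.7 to 12.5 under D-ala. Its log2 fold change for D-ala against vehicle was 0.05 (95% interval -0.09 to 0.19, adjusted p = 0.674). Igf1r, the receptor of insulin-like growth factor 1 (chromosome 7, 67952827 to 68233668, plus strand), had group means of 17.4 ± 2.21 FPKM under vehicle, 16.7 ± 0.940 under L-ala and 17.98 ± 1.63 under D-ala (SD, n = 5). Its fold change for D-ala against vehicle was 0.05 as well (interval -0.11 to 0.21, adjusted p = 0.725). For D-ala against L-ala the intervals were -0.06 to 0.22 for Insr and -0.07 to 0.26 for Igf1r. These bounds hold for the main processing and for the spread between these samples only. Each sign between the amino acid groups turned when the trend with gene length was removed, to -0.04 for Insr and -0.05 for Igf1r.

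Irs2 showed the largest difference between the amino acid groups among the members. Irs2 (chromosome 8, 10984681 to 11008458, minus strand) was at 3.67, 4.93, 2.38, 3.21 and 1.44 FPKM in the vehicle libraries. In the L-ala libraries it was at 1.11, 1.60, 0.836, 0.719 and 3.23 FPKM, and in the D-ala libraries at 4.84, 6.01, 6.50, 5.41 and 6.71 FPKM. All 5 D-ala libraries lay above all 5 L-ala libraries, and 4 of them above every vehicle library. Groups did not overlap in 9.11% of tested genes for D-ala against L-ala. The mean was 3.93 times as high under D-ala as under L-ala, and the log2 fold change was 1.54 (SE 0.24, adjusted p = 0.00165). That call held in all 24 alternative settings, with adjusted p from 1.38e-04 to 0.00615.

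Against vehicle, Irs2 rose under D-ala by less and close to the threshold, at 0.80 (SE 0.24, adjusted p = 0.0458). The call was lost without vehicle replicate 1 (adjusted p = 0.0544), 3 (0.0953), 4 (0.0817) or 5 (0.0955), without L-ala replicate 1 (0.0568) or 2 (0.0559), and on leaving out D-ala replicate 1 (0.0620), 2 (0.0840), 3 (0.0882), 4 (0.0631) or 5 (0.0944). It was also lost with a pseudocount of 0.1 (adjusted p = 0.0824), no filter on low values (0.0620) or the GC trend removed (0.0698). Under L-ala Irs2 was at -0.74 against vehicle (SE 0.24, adjusted p = 0.0595). L-ala replicate 5, which held the highest level of its group, decides that value: without it the log2 fold change was -0.95 (adjusted p = 0.00647). Without vehicle replicate 5, the lowest of its group, the fold change was -0.92 (adjusted p = 0.0238).

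Irs1, the substrate most studied in muscle and fat (chromosome 1, 82233101 to 82291416, minus strand), was low in these kidneys. It was at 2.17, 1.82, 2.18, 2.51 and 2.26 FPKM under vehicle, at 1.76, 1.58, 1.90, 1.70 and 1.62 under L-ala and at 1.78, 1.83, 2.11, 1.96 and 1.78 under D-ala. Of the L-ala libraries 4 lay below every vehicle library. Irs1 fell by 0.23 on the log2 scale under L-ala (SE 0.07, adjusted p = 0.0475), and was at -0.14 under D-ala (interval -0.29 to 0.01, adjusted p = 0.230). The call for L-ala was lost without vehicle replicate 1 (adjusted p = 0.0726), 3 (0.0727), 4 (0.129) or 5 (0.0702), without L-ala replicate 1 (0.0770), 2 (0.0836), 3 (0.0533), 4 (0.101) or 5 (0.0533) and on leaving out D-ala replicate 1 (0.0583), 2 (0.0545), 3 (0.0553), 4 (0.0550) or 5 (0.0546). With the length trend removed the fold change was -0.09 (adjusted p = 0.517). The call for L-ala held in 5 of 24 alternative settings.

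The level of endothelial markers was lower under both L-ala and D-ala than under vehicle. The mean of Irs1 was also lower in both groups, and its difference between D-ala and L-ala was 0.09 (limma adjusted p = 0.396). Of 6 endothelial markers, all in the table and none at 0, 4 fell under L-ala and 1 under D-ala against vehicle, and 0 rose. Their summed level was 81.2 to 127 FPKM under vehicle, 59.9 to 120 under L-ala and 73.9 to 95.01 under D-ala. Their mean log2 level was 3.56 ± 0.23 under vehicle and 3.01 ± 0.32 under L-ala (exact two-sided permutation p = 0.0238, n = 5). The 3 genes whose pattern over the 15 libraries was most like that of Irs1 were Ehd4 (Pearson r = 0.889), Ppap2b (0.876) and Eltd1 (0.866). The part of these cells in the fall of Irs1 was not tested. In such bulk samples fewer cells of a type and less RNA per cell cannot be told apart.

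Compared within each library, Irs2 was above Irs1 in 4 of 5 vehicle, 2 of 5 L-ala and 5 of 5 D-ala libraries. The ratio of Irs2 to Irs1 FPKM was 0.636 to 2.70 under vehicle with a median of 1.28, and 0.423 to 1.99 under L-ala with a median of 0.630. Under D-ala it was 2.72 to 3.77 with a median of 3.08. Every D-ala library thus had a higher ratio than every library of the other groups, with the closest vehicle library at 2.70. How often other pairs of genes separate in this way was not counted, for this ratio or that of Foxo3 to Foxo1. The members were chosen with earlier results of these data known, so the separation is a description. Such ratios do not depend on how libraries were scaled to each other, but they show unequal levels, not which gene moved.

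**Figure D2:**
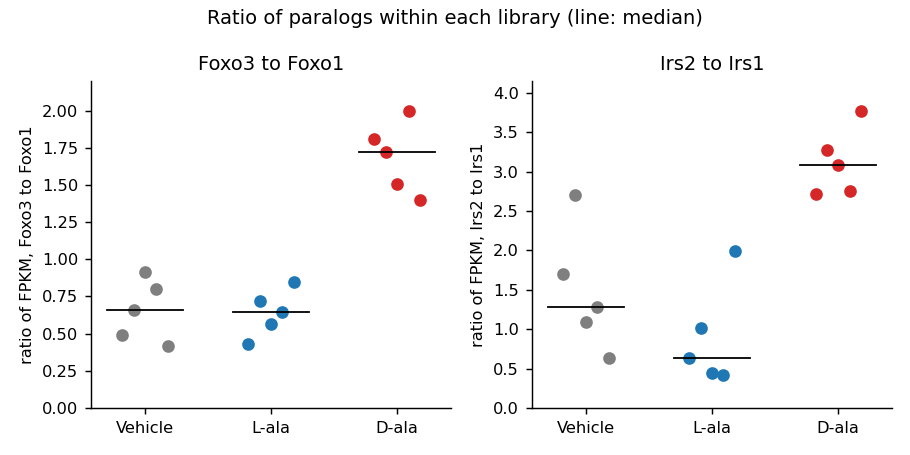
Ratio of FPKM within each library (vertical axes, linear from 0) for Foxo3 to Foxo1 and Irs2 to Irs1, with 5 libraries per group and the group median as a line. The 5 D-ala libraries sit between 1.40 and 2.00 for the FoxO ratio and between 2.72 and 3.77 for the substrate ratio, above the libraries of both other groups. How often other pairs of genes separate in this way was not counted.

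Downstream of the substrates, Pik3r1 rose and Akt2 differed by no more than the spread between libraries. Pik3r1, which codes for the p85 alpha subunit that docks PI3K on phosphorylated substrates (chromosome 13, 101680563 to 101768217, minus strand), was at 9.88, 8.94, 8.48, 9.77 and 8.01 FPKM under vehicle. It was at 7.86, 7.98, 8.54, 7.41 and 6.85 FPKM under L-ala and at 10.4, 11.8, 11.6, 9.33 and 16.002 under D-ala. All D-ala libraries lay above all L-ala libraries, where 9.11% of tested genes were without overlap, and 4 above every vehicle library. The difference between D-ala and L-ala was 0.54 (SE 0.11, adjusted p = 0.00534) and held in all 24 alternative settings, with adjusted p of at most 0.0261.

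Against vehicle, Pik3r1 rose by 0.34 under D-ala (SE 0.11, adjusted p = 0.0468). The call was lost without vehicle replicate 1 (adjusted p = 0.0512), 2 (0.0781), 3 (0.0943), 4 (0.0661) or 5 (0.101), without L-ala replicate 1 (0.0576), 2 (0.0566) or 4 (0.0534) and on leaving out D-ala replicate 1 (0.0517), 2 (0.0849), 3 (0.0784) or 5 (0.0928). Without D-ala replicate 5, its highest library, the fold change was 0.23. Changes of processing also lost the call, among them no filter on low values (adjusted p = 0.0708), only the 2 groups compared (0.0696) and the length trend removed (0.0506). It held in 6 of 24 alternative settings. Under L-ala Pik3r1 was at -0.20 against vehicle (interval -0.42 to 0.03, adjusted p = 0.212), with 4 of 5 libraries below every vehicle library. Akt2, the AKT kinase of insulin-sensitive tissues (chromosome 7, 27591552 to 27640826, plus strand), had means of 14.03 ± 1.08 FPKM under vehicle, 14.8 ± 0.533 under L-ala and 13.7 ± 0.634 under D-ala (SD, n = 5). Its interval for D-ala against vehicle was -0.14 to 0.09 on the log2 scale (adjusted p = 0.821).

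The FoxO factors did not move together. Foxo3 (chromosome 10, 42181841 to 42276755, minus strand) was at 4.496, 6.05, 7.70, 6.18 and 3.71 FPKM under vehicle and at 4.08, 7.30, 4.90, 7.05 and 7.49 FPKM under L-ala. Under D-ala it was at 18.3, 14.03, 10.6, 11.9 and 9.31 FPKM. The lowest D-ala library lay above the highest library of both other groups, where 10.9% of tested genes were without overlap for D-ala against vehicle. The log2 fold change was 1.06 against vehicle (SE 0.20, adjusted p = 0.00346) and 0.94 against L-ala (SE 0.20, adjusted p = 0.00841). Both calls held in all 24 alternative settings, with adjusted p of at most 0.0126 and 0.0239. L-ala and vehicle were closer, at 0.12 (interval -0.30 to 0.53, adjusted p = 0.724).

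Foxo1, the FoxO factor best known for driving G6pc and Pck1 in liver (chromosome 3, 52268336 to 52353221, plus strand), was not raised. It was at 9.16, 9.23, 8.43, 7.70 and 8.86 FPKM under vehicle and at 9.47, 10.2, 8.66, 10.9 and 8.86 FPKM under L-ala. Under D-ala it was at 10.1, 8.14, 7.01, 5.95 and 6.64 FPKM, so that D-ala replicate 1 held the highest level of that group and 3 of its libraries lay below every vehicle library. For D-ala against L-ala the fold change was -0.32 (SE 0.10, adjusted p = 0.0506), just outside the threshold. It passed without D-ala replicate 1 (-0.42, adjusted p = 0.0106), without L-ala replicate 5 (-0.35, adjusted p = 0.0344) and with the length trend (adjusted p = 0.0288) or the GC trend (0.0479) removed. Against vehicle it was at -0.19 under D-ala (adjusted p = 0.257) and 0.13 under L-ala (adjusted p = 0.414). The Foxo3 to Foxo1 ratio within a library was 0.419 to 0.913 under vehicle, 0.431 to 0.845 under L-ala and 1.40 to 2.00 under D-ala, so Foxo1 was the more abundant of them in every vehicle and L-ala library and Foxo3 in every D-ala library.

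Igfbp1, a secreted binding protein of insulin-like growth factors that FoxO factors raise and insulin lowers in liver, differed between the groups by less than the test could resolve. Igfbp1 (chromosome 11, 7197782 to 7202546, plus strand) was at 20.03, 37.97, 36.1, 17.5 and 44.8 FPKM under vehicle. It was at 11.2, 19.6, 19.4, 31.0 and 30.5 FPKM under L-ala and at 20.1, 23.3, 14.2, 17.5 and 19.6 under D-ala. Of the vehicle libraries 3 lay above every D-ala library and 2 within their range. The fold change was -0.62 for D-ala against vehicle (interval -1.25 to 0.01, adjusted p = 0.195) and -0.46 for L-ala against vehicle (interval -1.09 to 0.17, adjusted p = 0.2998), so neither a fall nor the absence of one was shown.

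**Figure D3:**
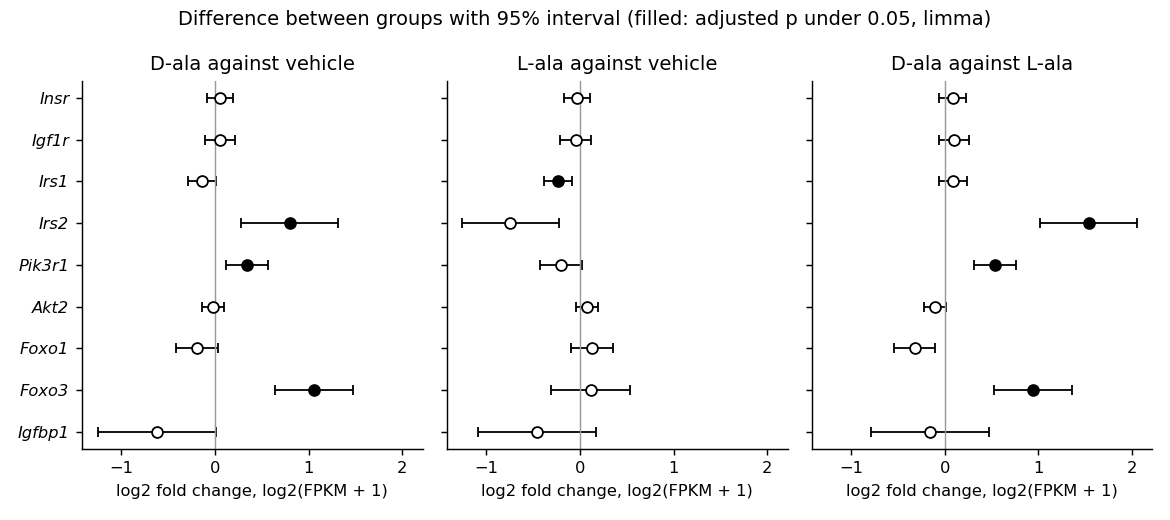
Log2 fold change of each member on the log2(FPKM + 1) scale (horizontal axes) with its 95% interval from limma in the 3 comparisons, where filled points have an adjusted p under 0.05. Foxo3, Irs2 and Pik3r1 are filled in both comparisons that involve D-ala, and Irs1 is filled where L-ala is set against vehicle.

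Over the 15 libraries the members' log2 levels were related as follows, given as a description because the libraries share treatment groups. Irs2 went with Pik3r1 (Pearson r = 0.735) and Foxo3 (0.654) and against Foxo1 (-0.616), and Pik3r1 went against Foxo1 (-0.581). Igfbp1 was at -0.144 with Irs2 and -0.164 with Foxo3. The tested genes whose pattern was most like that of Foxo3, among 7550 of at least 5 FPKM on average, were Skil (r = 0.931), Acly (0.925) and Tmppe (0.920). Those most like Irs2 were Golgb1 (0.954), March7 (0.952) and Ubr4 (0.943), and those most like Pik3r1 were Tgm1 (0.905), Tchh (0.900) and Slc4a9 (0.892). For Foxo1 they were Rnf130 (0.882), Tmub1 (0.861) and Ergic3 (0.859), for Igfbp1 Evi5 (0.812), Qars (0.795) and Slc6a19 (0.753), and for Akt2 Chordc1 (0.886), Pde1a (0.811) and Tfrc (0.809). For Insr they were Gnptab (0.829), Papss2 (0.816) and Myo1e (0.804) and for Igf1r Evc2 (0.894), Whsc1l1 (0.859) and Tnrc18 (0.847).

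The rest of the pathway was read from 7 lists with 120 genes, of which 119 are in the table and 101 were tested. For D-ala against vehicle 8 rose, 5 fell and 88 did not pass, with a median of -0.04. These are 7.92% and 4.95% of the tested pathway genes, near the 6.53% and 4.92% of all tested genes, and are no result about the lists as a whole. After quantile normalization 8 rose and 12 fell. FoxO targets numbered 29 among the tested genes, of which 5 passed upward, 1 passed downward and 23 missed the threshold, with a median of -0.02. The members that rose were Pck1 (0.82, SE 0.18, adjusted p = 0.00989) and G6pc (0.77, SE 0.18, adjusted p = 0.0142), the enzymes that open and close glucose production, and Trib1, a pseudokinase (0.72, SE 0.15, adjusted p = 0.00538). Gadd45a, a stress gene (0.81, adjusted p = 0.0391), and Cat, the catalase that breaks down hydrogen peroxide (0.22, adjusted p = 0.0430), rose as well. The naming rule does not reach this pair, which was picked with the values in view. Their calls held in 15 and 11 of 24 alternative settings, and G6pc no longer passed once the 3 libraries of lowest depth were left out (adjusted p = 0.0553). Of the 8 proximal tubule markers, which mark the cells known to make G6pc and Pck1 in kidney, 2 rose and 0 fell for D-ala and 3 rose and 0 fell for L-ala against vehicle. Their mean log2 level was 7.79 ± 0.08 under vehicle, 7.88 ± 0.05 under L-ala and 7.86 ± 0.06 under D-ala (SD, n = 5), and their part in these rises was not tested.

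The FoxO target that fell did so by more than any member moved. The gene listed as 8430408G22Rik, now named Depp1, is a known FoxO target and was at 37.6 ± 15.8 FPKM under vehicle, 24.2 ± 8.37 under L-ala and 8.99 ± 2.24 under D-ala (SD, n = 5). Its log2 fold change for D-ala against vehicle was -1.86 (SE 0.32, adjusted p = 0.00281), without overlap between the groups, and the call held in all 24 alternative settings. Against L-ala it was at -1.29 (adjusted p = 0.0209), and did not pass once L-ala replicate 4 was left out (adjusted p = 0.0563). Among the FoxO targets that did not pass, Txnip was at -0.24 (adjusted p = 0.245), Klf15 at -0.07 (adjusted p = 0.804) and Pdk4 at 0.06 (adjusted p = 0.957), 3 genes picked with the values in view.

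Among the signalling genes, Pik3ca, the catalytic subunit that pairs with Pik3r1, fell from 12.3 ± 0.780 to 9.69 ± 0.613 FPKM under D-ala (-0.31, SE 0.07, adjusted p = 0.0104). Of 15 tested PI3K, AKT and TORC2 subunits it was the 1 that passed for D-ala against vehicle. Without D-ala replicate 4, 1 rose and 2 fell. Of 20 tested brakes on insulin signalling 1 rose, Trib1, and 2 fell. Among the latter Grb7, an adaptor related to Grb10 and Grb14, fell by 0.68 on the log2 scale (SE 0.14, adjusted p = 0.00542). The calls of Pik3ca, Grb7, Trib1 and Pck1 held in all 24 alternative settings.

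Of 11 other FoxO factors and partners, 2 rose and 1 fell under D-ala. Ppargc1a, a coactivator that works with FoxO factors on glucose production, rose by 0.25 (SE 0.06, adjusted p = 0.0149) and Sgk1, a kinase that phosphorylates Foxo3, by 0.29 (SE 0.09, adjusted p = 0.0399). Foxo4, the other tested FoxO factor, fell by 0.20 (SE 0.06, adjusted p = 0.0427). The call of Ppargc1a held in all 24 alternative settings, that of Sgk1 in 15 and that of Foxo4 in 12. Foxo4 was lost on leaving out any D-ala library, any vehicle library but the fourth, or the first or second L-ala library, with adjusted p from 0.0517 to 0.0948. Sgk1 was lost on leaving out any vehicle library or the first or second D-ala library, with adjusted p from 0.0517 to 0.101. With any of the first 3 vehicle or the first 2 D-ala libraries left out, Ppargc1a alone of the 11 passed. Of 9 tested lipid and glucose genes that insulin raises, 1 rose, Acly, which makes acetyl-CoA for lipid synthesis (0.48, SE 0.12, adjusted p = 0.0142). Of 9 ligands and binding proteins and of 10 other receptor adaptors 0 passed in limma for D-ala against vehicle. At an unadjusted p under 0.05 there were 2 higher and 2 lower ligands and binding proteins and 1 higher and 1 lower adaptor, and up to 3 and 2 genes of these lists passed in the alternative settings.

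**Figure D4:**
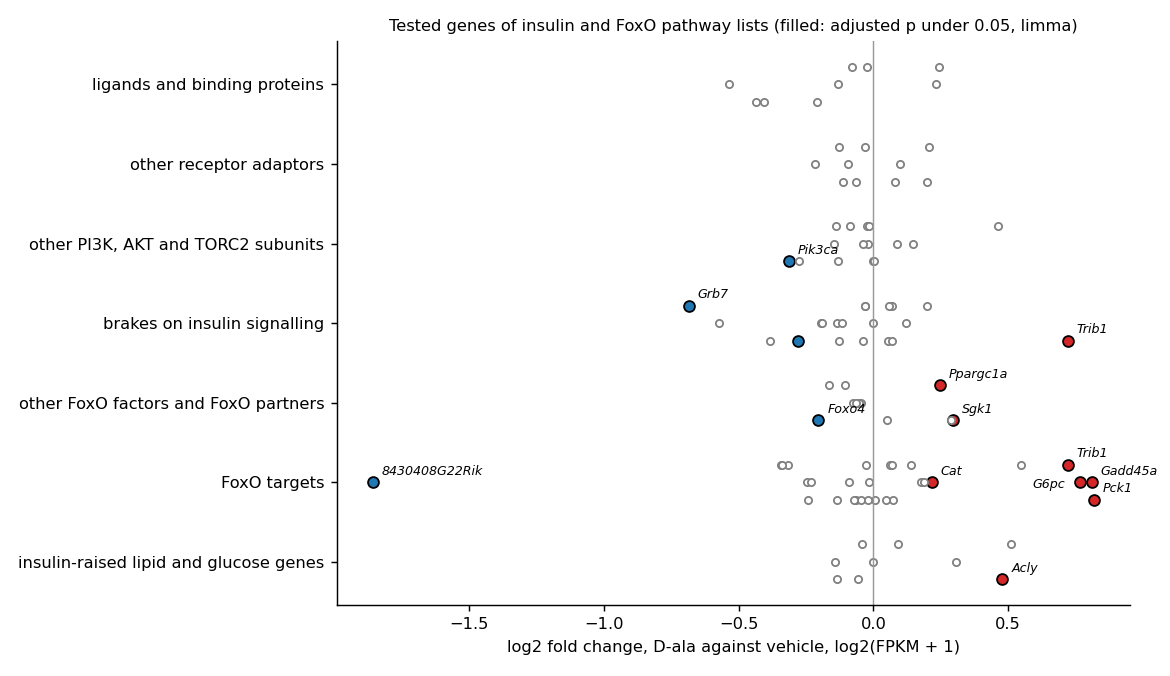
Log2 fold change for D-ala against vehicle on the log2(FPKM + 1) scale (horizontal axis) of each tested gene in the 7 pathway lists (rows), filled where the adjusted p was under 0.05, with the genes described in the text named. The 29 FoxO targets spread from -1.86 for 8430408G22Rik to 0.82 for Pck1, with most near 0, and Trib1 stands in 2 lists.

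Under L-ala 6 of the 101 tested pathway genes rose against vehicle, 9 fell and 86 did not pass, with a median of -0.07. The shares were 5.94% and 8.91%, beside 6.48% and 4.53% of all tested genes. The count that passed was 3 without vehicle replicate 4, 5 without L-ala replicate 4, 6 without vehicle replicate 2 and 9 without vehicle replicate 1 or L-ala replicate 1. Tsc1, which restrains the kinase mTOR, fell by 0.34 (SE 0.07, adjusted p = 0.00974), Ep300, an acetyltransferase of FoxO factors, by 0.41 (SE 0.09, adjusted p = 0.0122) and Ccng2, a FoxO target of the cyclin family, by 0.37 (SE 0.08, adjusted p = 0.0134). Ep300 and Ccng2 held in all 24 alternative settings. Tsc1 was lost with the length trend removed (adjusted p = 0.0521). Trib1 rose under L-ala as under D-ala (0.63, SE 0.15, adjusted p = 0.0191), and this call was lost without vehicle replicate 4 (adjusted p = 0.0628) and without the 3 libraries of lowest depth (0.0678). Of 29 FoxO targets 4 rose and 1 fell. Beside Trib1 the risers were Trim63, a ubiquitin ligase of muscle wasting (0.99, SE 0.25, adjusted p = 0.0257), Sod2, the mitochondrial superoxide dismutase (0.22, SE 0.05, adjusted p = 0.02001), and Cdkn1a, the cell cycle inhibitor p21 (1.01, SE 0.27, adjusted p = 0.0311), the last of which was picked with the values in view. Their calls held in 21, 19 and 18 of 24 alternative settings. Of the 29, 0 rose and 1 fell without vehicle replicate 4, 1 rose without L-ala replicate 4 and 5 rose and 3 fell without L-ala replicate 5. G6pc was at 0.02 (adjusted p = 0.943), a sign that turned in 6 of 24 alternative settings, and Pck1 at 0.43 (adjusted p = 0.125).

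Between D-ala and L-ala 12 of the 101 pathway genes were higher, 7 lower and 82 did not pass, with a median of 0.06. The shares were 11.9% and 6.93%, beside 7.01% and 6.66% of all tested genes. Mtor, the kinase downstream of AKT, was higher under D-ala (0.42, SE 0.09, adjusted p = 0.00901), as were Acly (0.50, SE 0.12, adjusted p = 0.0134) and G6pc (0.74, SE 0.18, adjusted p = 0.0185), and these held in all 24 alternative settings. Pck1 was at 0.38 (adjusted p = 0.168). Of 29 FoxO targets 3 were higher and 3 lower, and 2 higher and 0 lower without L-ala replicate 4, or 2 and 1 without D-ala replicate 3. The higher ones were G6pc, Bcl2l11, a cell death gene (0.35, SE 0.09, adjusted p = 0.0186), and Cat (0.24, SE 0.07, adjusted p = 0.0257). The lower ones were 8430408G22Rik and, picked with the values in view, Trim63 (-0.85, SE 0.25, adjusted p = 0.0367) and Sod2 (-0.17, SE 0.05, adjusted p = 0.0420), whose calls held in 15 and 9 of 24 alternative settings. In the other lists Pik3ca was lower (-0.24, SE 0.07, adjusted p = 0.0357), as were Ptpn2, a phosphatase that acts on the insulin receptor (-0.22, SE 0.06, adjusted p = 0.0315), and Igfbp4, a binding protein of insulin-like growth factors (-0.31, SE 0.09, adjusted p = 0.0294). These calls held in 12, 14 and 17 of 24 alternative settings. Of 10 other receptor adaptors 4 were higher, Dok1, Gab2 and Dok4 among them, and 0 lower. That count was 0 when L-ala replicate 4 was left out, 1 for L-ala replicate 3 or D-ala replicate 1, and 2 for L-ala replicate 1 or D-ala replicate 2, 3 or 5. All pathway genes that passed numbered 4 without L-ala replicate 4 and 8 without L-ala replicate 3 or D-ala replicate 3. They numbered 10 when D-ala replicate 1 was left out, 11 for D-ala replicate 2, 4 or 5 and 12 for L-ala replicate 2.

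Markers of other cells also moved between the groups that separate Foxo3, Irs2 and Pik3r1. Of 7 macrophage markers in the table, none at 0, 6 were tested and 3 fell for D-ala against vehicle. The summed level of the 7 was 65.2 to 90.2 FPKM under vehicle, 55.9 to 76.3 under L-ala and 44.9 to 64.9 under D-ala. Of 6 fibroblast and pericyte markers 2 fell, with 24.1 to 41.4 FPKM under vehicle and 19.003 to 27.6 under D-ala. Of 5 neutrophil markers, none at 0, 2 were tested and both rose under L-ala, with 0.676 to 7.72 FPKM under vehicle, 13.1 to 34.98 under L-ala and 2.39 to 11.3 under D-ala. Of 3 tested red blood cell markers 1 was lower in the D-ala group than in the L-ala group, and the sums over the 4 in the table were 12.9 to 206 FPKM under vehicle, 208 to 579 under L-ala and 27.9 to 343 under D-ala. Adipocyte markers summed to 101 to 440 FPKM under vehicle, 146 to 247 under L-ala and 70.5 to 516 under D-ala (exact two-sided permutation p = 0.310 for D-ala against vehicle, n = 5). The part of these cells in the levels of the members was not tested.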

How the data were processed

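Kidney RNA of 15 samples was extracted with TRIzol and made into stranded mRNA libraries (TruSeq), per the labels' protocols. TopHat2 2.0.13, Bowtie2 2.2.3, SAMtools 0.1.19 and mm10 are named in the submitters' processing notes, with no roles. The counting program, its annotation and its handling of strandedness were not given in the sources used here. The authors deposited FPKM values per gene and library, which were used here. The deposited whole-number count columns are a score in effect: they were rescaled and rounded again, so no count model was run, although a count test had been planned. Their spacing gave the depth.

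Genes of at least 1 FPKM in at least 5 libraries were tested (11781 of 23284) as log2(FPKM + 1), so fold changes of low genes are understated. limma 3.58.1 in R 4.3.3 fitted all 3 groups with a trended, robust variance, and Benjamini-Hochberg adjustment ran over all tested genes. Every 95% interval comes from this fit, as does every adjusted p except those given for an alternative setting. Those come from limma refitted under the setting named. The fit was also run on simulated data with noise drawn separately for each gene and library. Such data hold no shift shared by the genes of a library, so that run cannot show how the fit handles one. Marker lists were compared with exact permutation tests (scipy 1.17.1). Symbols were matched to GENCODE M21 on GRCm38: 20911 directly, 1914 through older names and 459 not at all.

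The members and lists were chosen with earlier results of these data known. Named genes are the 9 members, up to 4 passing genes per list by smallest p, G6pc and Pck1, and for each member the 3 genes of at least 5 FPKM on average with the highest Pearson correlation, without Gm and Rik models. Alternatives changed the pseudocount (0.1), filter, scaling, variance model, groups fitted, length and GC trends, and libraries included. Some genes of the lists are counted but not reported by name here.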

Additional observations from a re-analysis of the deposited data

Results flagged for a closer look

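Igf1r in D-ala replicate 4, at 20.8 FPKM, stood apart from the other 4 D-ala libraries, which ran from 16.8 to 17.7 FPKM. Its gap to the nearest of them, divided by the range of the group, was above Dixon's 95% critical value for 5 samples. This was 1 of 27 groups of 5 that were checked, and chance alone sets apart about 1 in 20 groups. Vehicle replicate 2 held a similar Igf1r level of 21.1 FPKM.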

How the results depend on the processing

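Foxo3 for D-ala against vehicle, and Foxo3, Irs2 and Pik3r1 for D-ala against L-ala, kept their direction and call in all 24 alternatives. Over all members, comparisons and alternatives, 581 results kept direction and side of the threshold, 51 lost the call, 6 gained it and 10 changed sign; the cause was not tested.

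Members called for D-ala against vehicle numbered 1 with no filter and 1 to 3 with each replicate left out. For L-ala against vehicle the number was 0 with no filter, after quantile normalization, with only the 2 groups compared, with the length trend removed and without the 3 libraries of lowest depth, and 0 to 1 with each replicate left out. Between the amino acids it was 3 to 4. Genes called for D-ala against vehicle numbered 814 (without vehicle replicate 4) to 1591 with each replicate left out. For L-ala against vehicle they numbered 575 after quantile normalization, 603 with only the 2 groups compared and 729 with the length trend removed, and 321 (without vehicle replicate 4) to 2577 (without L-ala replicate 5). For D-ala against L-ala they numbered 975 with only the 2 groups compared, and 770 (without L-ala replicate 4) to 2763 (without L-ala replicate 5).

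All sign changes were of values that had not passed. With the length trend removed, Insr was at 0.11 and Igf1r at 0.11 for L-ala against vehicle, and Insr at -0.041, Igf1r at -0.051 and Irs1 at -0.031 for D-ala against L-ala. Over left-out replicates, Akt2 for D-ala against vehicle ran from -0.061 to 0.0035 (without vehicle replicate 2). Igf1r ran from -7.5e-05 (without D-ala replicate 4) to 0.12 for D-ala and from -0.076 to 0.024 (without vehicle replicate 2) for L-ala against vehicle. Without the 3 libraries of lowest depth Foxo3 was at -0.10 for L-ala against vehicle and Igfbp1 at 0.19 for D-ala against L-ala. G6pc for L-ala against vehicle was at -0.16 after quantile normalization, -0.0026 with the length trend removed, -0.10 without the 3 libraries of lowest depth, and from -0.093 to 0.10 with each replicate left out, below 0 without vehicle replicate 1 or 4 or L-ala replicate 2. No paired analysis was possible because the labels give no replicate number shared between groups. DESeq2 was not run because no column holds raw counts.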
